A study of Homo sapiens with 6 samples.

Results

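The thioredoxin and peroxiredoxin system was followed through 10 of the 19977 gene symbols of the series, all of which matched a symbol of the table. They were TXNRD1, TXNRD2, TXN, TXN2, TXNIP, SRXN1, PRDX1, PRDX2, PRDX3 and PRDX6. The genes were taken by name from these families, and they were proposed with the large decrease of TXNRD1 in this comparison already known, so their group differences are given as a description with no test. The cells were U2OS, a human osteosarcoma line. The siNUDT5 group (3 libraries) was transfected with an siRNA against NUDT5, a hydrolase of ADP-ribose, and the siCtrl group (3 libraries) with a non-targeting siRNA. Both groups were otherwise untreated, and RNA was taken 48 hours after transfection. The labels name neither the siRNA sequences nor whether 1 siRNA or a pool was used. They also leave unsaid whether libraries came from separate cultures, so a p-value covers library-to-library spread only, and part of that may be technical.

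Thioredoxins are small proteins that reduce disulfides in other proteins through a pair of cysteines. Thioredoxin reductases, which carry a selenocysteine near their end, restore them with electrons from NADPH. Peroxiredoxins break down hydrogen peroxide with a reactive cysteine, and most of them are in turn reduced by thioredoxin. The cytosol and the mitochondria each have their own reductase, thioredoxin and peroxiredoxins. Genes of the cytosolic branch, TXNRD1 and SRXN1 among them, are known targets of the transcription factor NRF2.

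NUDT5 itself stood at 3.04, 2.74 and 2.67 TPM in siNUDT5 libraries, against 46.2, 49.0 and 52.0 TPM in siCtrl libraries. TPM is a transcript level scaled for transcript length and for the library total. By the steps of low values, the libraries' relative depth lay between 64.1% (siCtrl 2) and 118% (siNUDT5 2) of that of siCtrl 1. siCtrl 2 differed from the other siCtrl libraries by a median of 0.296 and 0.227 on the log2(TPM + 1) scale, against 0.0967 to 0.134 for the other within-group pairs. Of 5 bone and mesenchymal markers, all were present, from RUNX2 at 7.58 TPM or more to VIM at 3028 TPM or more, and their sum was 5017 to 5145 TPM in siNUDT5 and 4345 to 4617 TPM in siCtrl. Of 7 markers of epithelial, blood, endothelial and liver cells CD3E was listed at 0 throughout, EPCAM reached 12.8 TPM and CDH1 2.44 TPM, and the sum was 7.63 to 7.78 TPM in siNUDT5 and 10.1 to 15.3 TPM in siCtrl. The part of these marker differences in the results was not tested, and in bulk RNA fewer cells of a kind and less RNA per cell cannot be told apart.

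TXNRD1, the cytosolic reductase, stood apart from every other gene of the system. Its level was 152, 149 and 145 TPM in siNUDT5 1 to 3, against 457, 580.2 and 496 TPM in siCtrl 1 to 3. The siNUDT5 libraries lay close together, far below the lowest siCtrl library. The means were 149 ± 3.56 TPM in siNUDT5 and 511 ± 62.9 TPM in siCtrl (SD, n = 3 each), and the siNUDT5 mean was 29.1% of the siCtrl mean. The log2 change on the log2(TPM + 1) scale was -1.77 with a standard error of 0.0956. It was the 4th lowest of the 12236 genes tested, those averaging at least 1 TPM, and 14 of them, TXNRD1 included, changed by as much or more in either direction. By level, TXNRD1 was the 242nd most abundant of these genes in siCtrl and the 1176th in siNUDT5, counted from the top.

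Among the other 9 genes of the system the lowest log2 change was -0.22, that of PRDX1. Their median log2 change was 0.04, beside 0.05 for all 12236 genes, and the change of TXNRD1 minus this median was -1.81 on the log2 scale. The largest absolute log2 change among the 9 was 0.51, that of TXNIP. In 5 of the 10 the values of the groups did not overlap, as in 37.3% of all tested genes. The genes were chosen with this comparison known, so nothing is read from this count.

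**Figure D1:**
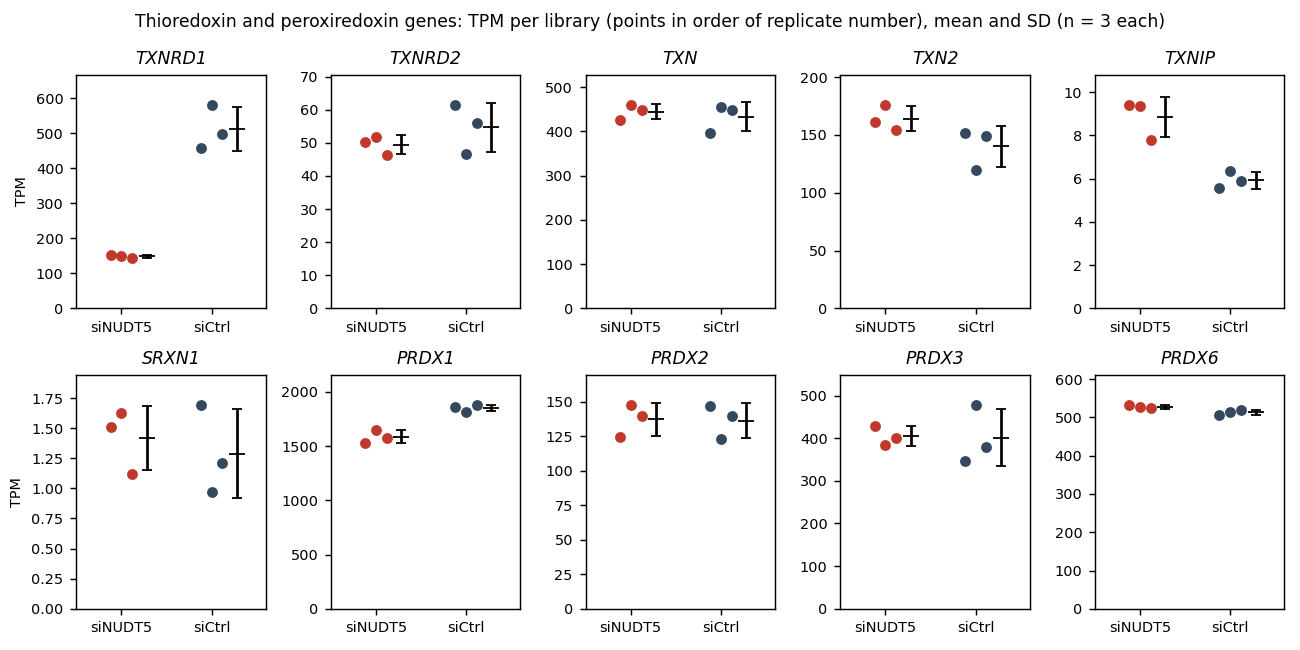
TPM of the 10 genes in each siNUDT5 (left, red) and siCtrl (right, dark) library, with the mean and SD of 3 libraries beside the points. Each panel has its own axis from 0. TXNRD1 lies at 145 to 152 TPM in siNUDT5 and at 457 to 580.2 TPM in siCtrl, while 5 of the 10 genes have overlapping groups.

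**Figure D2:**
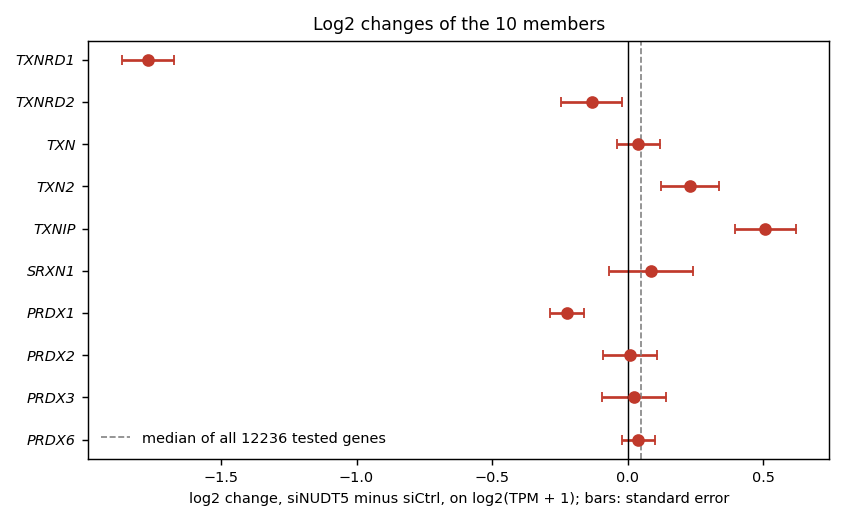
Log2 change of each gene, siNUDT5 minus siCtrl, with its standard error, and the median of all tested genes as a dashed line. TXNRD1 is at -1.77, and the other genes lie between -0.22 (PRDX1) and 0.51 (TXNIP).

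TXNRD2, the mitochondrial reductase, had 50.3, 51.8 and 46.4 TPM in siNUDT5 libraries, against 61.4, 46.7 and 55.9 TPM in siCtrl libraries. The groups overlapped, and siCtrl 2 held the lowest control value. The log2 change was -0.13 ± 0.113 (standard error), and over the alternatives it lay between -0.24 (without siCtrl 2) and -0.05 (without siCtrl 1). Both reductases end in a glycine, cysteine, selenocysteine, glycine tail, in which the selenocysteine is encoded by TGA, read as a stop codon in most other genes. The last coding bases are shown because this tail sets the reductases apart from the thioredoxins they reduce. The capitals mark the TGA that GENCODE 29 annotates as selenocysteine. The sequences lie at chr12:104348395-104348421 on the plus strand (TXNRD1) and chr22:19877105-19877131 on the minus strand (TXNRD2) of GRCh38, in the final coding exons.
TXNRD1: atcctccaggctggctgcTGAggttaa
TXNRD2: cccacggtgacaggctgcTGAgggtaa

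The annotated starts of the genes were searched for a motif that NRF2 is known to bind. The antioxidant response element core, TGACNNNGC, was searched on both strands in the 300 bases around each annotated start in RefSeq (GRCh38.p14), where 7 of the 10 genes have 11 windows. TXN2, PRDX1 and PRDX6 have no entry. Both windows of TXNRD1 held the core and none of the other 9 windows did. Of 35116 windows of all genes 13.3% held it, so windows without it are the common case. With 11 windows nothing is read from this count. The sites are printed with the motif in capitals, on the plus strand of chromosome 12. They begin 99 and 8 bases before the upstream start (chr12:104215670-104215699 and chr12:104215761-104215790) and 102 bases before the downstream start (chr12:104286920-104286949). The last 2 read as the core on the opposite strand.
TXNRD1 upstream start, site 1: acacgggctaTGACTTCGCtgttgtcaccg
TXNRD1 upstream start, site 2: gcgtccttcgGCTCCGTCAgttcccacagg
TXNRD1 downstream start: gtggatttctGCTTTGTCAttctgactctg
These are matches of letters only, and binding was not measured. No window of the 7 genes held the ATF4 element TGATGNAAT, which 0.991% of all windows held. The E-box CACGTG, held by 7.26% of all windows, was found in PRDX3, 157 bases before its start.

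The thioredoxins themselves differed far less between the groups than TXNRD1. TXN, the cytosolic thioredoxin, had 425, 459.5 and 448 TPM in siNUDT5 libraries, against 396, 455 and 449 TPM in siCtrl libraries. The ranges overlapped almost fully, and the means were 444 ± 17.5 TPM and 433 ± 32.3 TPM in this order (SD, n = 3 each). The log2 change was 0.04 ± 0.0791 (standard error), and its sign was negative in 2 of 13 alternative settings. TXN2, the mitochondrial thioredoxin, had 161, 176 and 155 TPM in siNUDT5 libraries, against 152, 120.0 and 149 TPM in siCtrl libraries. The groups did not overlap, but the gap was small, and siCtrl 2 was the lowest. The log2 change of TXN2 was 0.23 ± 0.107 (standard error), between 0.12 and 0.29 over the alternatives.

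TXNIP, an arrestin-like protein that binds and inhibits thioredoxin, was scarce and higher in siNUDT5. It had 9.40, 9.37 and 7.80 TPM in siNUDT5 libraries, against 5.56, 6.34 and 5.88 TPM in siCtrl libraries. All 3 siNUDT5 values lay above the highest siCtrl value, at 149% of the control mean. The log2 change was 0.51 ± 0.113 (standard error) and stayed positive in all 13 alternatives, from 0.34 to 0.59. The ratio of TXN to TXNIP was 45.2, 49.0 and 57.5 in siNUDT5 libraries and 71.3, 71.7 and 76.4 in siCtrl libraries.

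Of the peroxiredoxins, PRDX1 was lower by a small margin and the other 3 differed by less. PRDX1, the main cytosolic one, had 1531, 1652 and 1574 TPM in siNUDT5 libraries, against 1863, 1817 and 1875 TPM in siCtrl libraries. The groups did not overlap, and 85.6% of the control mean remained. The log2 change was -0.22 ± 0.0613 (standard error) and between -0.28 and -0.16 over the alternatives.

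PRDX2, the other cytosolic peroxiredoxin of the same class, had 125, 148 and 139.7 TPM in siNUDT5 libraries, against 147, 123 and 139 TPM in siCtrl libraries. The groups overlapped, with a log2 change of 0.01 ± 0.0994 (standard error). PRDX3, found in mitochondria, had 429.6, 384 and 399.8 TPM in siNUDT5 libraries, against 347, 477 and 380.3 TPM in siCtrl libraries. The siCtrl values enclosed the siNUDT5 values on both sides, and the log2 change was 0.02 ± 0.117 (standard error). PRDX6, which has a single reactive cysteine and is reduced by glutathione and not by thioredoxin, had 532, 526 and 524 TPM in siNUDT5 libraries, against 506, 515 and 519 TPM in siCtrl libraries. These were the steadiest values of the 10 genes, with an SD of 0.772% of the mean in siNUDT5 and 1.34% in siCtrl, and the groups did not overlap although the means differed by less than 3%. The log2 change of PRDX6 was 0.04 ± 0.0618 (standard error) and turned to -0.02 with median-ratio scaling. The signs of PRDX2 and PRDX3 were also unstable, each positive in 8 of 13 alternatives.

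SRXN1, sulfiredoxin, which repairs over-oxidized peroxiredoxins and is like TXNRD1 a known NRF2 target, was the least abundant. It had 1.51, 1.62 and 1.12 TPM in siNUDT5 libraries, against 1.69, 0.967 and 1.21 TPM in siCtrl libraries. The groups overlapped, with a log2 change of 0.09 ± 0.154 (standard error). It was 0.21 without siCtrl 1 and -0.02 without siCtrl 2, so its sign rested on single libraries.

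The proportions between the transcripts of a library therefore differed between the groups mainly where TXNRD1 was part of them. The ratio of TXN to TXNRD1 was 2.80, 3.09 and 3.09 in siNUDT5 libraries, against 0.867, 0.784 and 0.905 in siCtrl libraries, both on the TPM scale. TXNRD1 was thus the more abundant transcript of the pair in all siCtrl libraries and the less abundant one in all siNUDT5 libraries. The ratio of PRDX1 to TXNRD1 was 10.7 ± 0.539 in siNUDT5 and 3.66 ± 0.483 in siCtrl (SD, n = 3 each). The cytosolic reductase exceeded the mitochondrial one by a ratio of 3.01 ± 0.127 in siNUDT5 and of 9.58 ± 2.57 in siCtrl (SD, n = 3 each), with siCtrl 2 at 12.4. In the mitochondrial pair, the ratio of TXN2 to TXNRD2 was 3.21, 3.39 and 3.33 in siNUDT5 libraries and 2.47, 2.57 and 2.66 in siCtrl libraries. This ratio also separated the groups, by a much smaller margin than in the cytosolic pair.

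**Figure D3:**
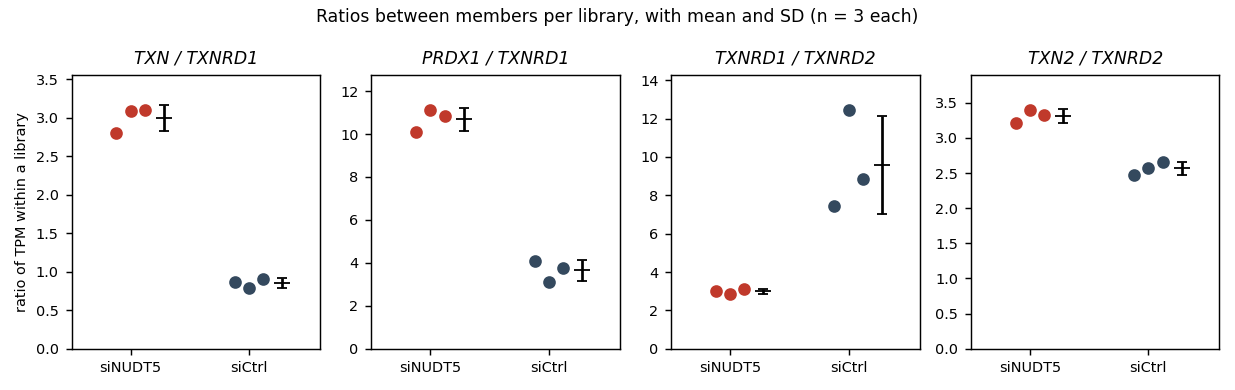
Ratios of TPM between 2 genes within each siNUDT5 (left, red) and siCtrl (right, dark) library, with the mean and SD of 3 libraries. The ratio of TXN to TXNRD1 lies at 2.80 to 3.09 in siNUDT5 and below 1 in siCtrl.

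Ordered by mean TPM, the siNUDT5 libraries gave PRDX1, PRDX6, TXN, PRDX3, TXN2, TXNRD1, PRDX2, TXNRD2, TXNIP and SRXN1. Of neighbours in that order, TXN and PRDX3 overlapped, as did TXNRD1 and PRDX2. In siCtrl libraries the order was PRDX1, PRDX6, TXNRD1, TXN, PRDX3, TXN2, PRDX2, TXNRD2, TXNIP and SRXN1. There the overlapping neighbours were PRDX6 and TXNRD1, TXN and PRDX3, and TXN2 and PRDX2. TXNRD1 was the 3rd of the 10 in siCtrl and the 6th in siNUDT5. The 10 genes together held 3471 ± 74.9 TPM in siNUDT5 and 4049 ± 104 TPM in siCtrl (SD, n = 3 each), and TXNRD1 made up 4.28% of that sum in siNUDT5 and 12.6% in siCtrl.

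A wider list held 24 further genes, for thioredoxin-like proteins, peroxiredoxins, glutaredoxins and the reductases TXNRD3 and GSR. Of these 24 genes 23 were tested, of which 7 rose, 1 fell and 15 did not pass (limma, adjusted p under 0.05, with adjustment over all 12236 genes). That is 34.8% of them, beside 16.1% of all tested genes (10.9% that rose and 5.20% that fell), and their median log2 change was 0.11 beside 0.05. GLRX, the cytosolic glutaredoxin, which works with glutathione, rose to 129 ± 5.29 TPM in siNUDT5, against 93.1 ± 9.12 TPM in siCtrl (SD, n = 3 each; log2 change 0.47, adjusted p = 0.0113). TXNDC12, a thioredoxin-like protein of the endoplasmic reticulum, rose by 0.42 on the log2 scale (adjusted p = 0.0201). TXNDC15 (0.37), TXNDC11 (0.36), TMX4 (0.34) and TMX2 (0.24) also rose, while their relatives TXNDC5 (0.23), TMX1 (0.04), TXNDC16 (0.03) and TMX3 (-0.01) did not pass. These 8 were named after their values were seen. TXNL4A and TXNL4B have the fold but belong to the splicing machinery, and they moved apart. TXNL4A rose by 0.48 (adjusted p = 0.0137), and TXNL4B fell by 0.43 on the log2 scale (adjusted p = 0.0114).

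The count of 8 changed when single libraries were left out. It was 13 without siCtrl 2, 5 without siCtrl 1, and 1 without siCtrl 3, siNUDT5 1 or siNUDT5 3. Without siNUDT5 2 it was 0, where 8 had an unadjusted p under 0.05 in limma. The count over all tested genes, 1970, changed in these fits too. That total was 3804 without siCtrl 2, 2075 without siCtrl 1 and 868 without siCtrl 3. Without siNUDT5 1, 2 or 3 it was 843, 775 or 764. The counts of the lists below stand beside these totals as well. The remaining peroxiredoxins, PRDX4 of the endoplasmic reticulum (log2 change -0.19, adjusted p = 0.141) and PRDX5 (-0.21, adjusted p = 0.225), did not pass. Neither did the third thioredoxin reductase TXNRD3 (0.18, adjusted p = 0.481) or glutathione reductase GSR (-0.21, adjusted p = 0.202). These 4 were named for their families, after their values were seen.

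Among 23 tested genes for thioredoxin clients, sestrins and relatives and regulators of TXNIP, 2 rose, none fell and 21 did not pass. At an unadjusted limma p under 0.05, 1 was lower, and with median-ratio scaling or quantile normalization 1 fell past the threshold. SESN3, a sestrin, rose to 7.32 ± 0.897 TPM in siNUDT5, against 4.34 ± 0.940 TPM in siCtrl (SD, n = 3 each; log2 change 0.65, adjusted p = 0.0222). MLX, a partner of the glucose-sensing transcription factors that are known to drive TXNIP, rose by 0.37 (adjusted p = 0.0180). Its own partner MLXIP (0.15) and ARRDC4 (0.23), another arrestin gene under the same factors, did not pass. The ribonucleotide reductase subunits RRM1 (-0.28) and RRM2 (-0.13), which thioredoxin can reduce, did not pass either. The share was 8.70% of the list beside 16.1% of all genes, and the median was 0.12. Without siCtrl 2, 7 passed, and none did without siCtrl 3 or any 1 siNUDT5 library, where 2 or 3 had an unadjusted limma p under 0.05.

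TXNRD1 is a selenoprotein, and among 24 tested genes of other selenoproteins and of selenocysteine insertion 4 rose, 2 fell and 18 did not pass. SELM (log2 change 0.44, adjusted p = 0.0392), SELK (0.42, adjusted p = 0.0112) and VIMP (0.35, adjusted p = 0.0197) rose, while the selenoprotein genes SEP15 (0.40, adjusted p = 0.172), SELT (0.32, adjusted p = 0.269) and SEPN1 (-0.19, adjusted p = 0.251) did not pass. SEPHS2 (0.39, adjusted p = 0.0106), a selenoprotein that makes the selenium donor, rose too. VIMP, SEPHS2 and those that did not pass were named after their values were seen. DIO2, a thyroid hormone deiodinase, fell to 1.95, 1.97 and 1.65 TPM in siNUDT5 libraries, against 3.94, 5.99 and 4.57 TPM in siCtrl libraries (log2 change -1.01, adjusted p = 0.00372). GPX3, a secreted glutathione peroxidase, fell by 0.39 on the log2 scale (adjusted p = 0.0279), while GPX1 (0.16) and GPX4 (0.15) did not pass. That is 25% of the list beside 16.1%, with a median of 0.11. The count of 6 was 10 without siCtrl 2, 2 without siCtrl 3 and 1 without any 1 siNUDT5 library.

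Of 25 tested genes of NRF2, KEAP1 and other antioxidant genes, 1 rose, 2 fell and 22 did not pass. A further 2 of the 27 genes listed averaged under 1 TPM and were not tested. AKR1C1 had means of 0.484 TPM in siNUDT5 and 1.47 TPM in siCtrl, with no overlap. ABCC2 had 0.610 TPM in siNUDT5 and 0.805 TPM in siCtrl, with overlap. The cystine transporter gene SLC7A11 (-1.13, adjusted p = 0.00715) and the glutathione synthesis gene GCLM (-0.70, adjusted p = 0.0321) fell, and catalase, CAT, rose (0.40, adjusted p = 0.0146). GCLC, also a glutathione synthesis gene, went the other way from GCLM, with means of 36.1 TPM in siNUDT5 and 27.6 TPM in siCtrl. Its groups did not overlap, but it did not pass (log2 change 0.39, adjusted p = 0.0959). NFE2L2, which encodes NRF2 (-0.05), KEAP1 (0.19), NQO1 (-0.25, adjusted p = 0.0591) and HMOX1 (0.32, adjusted p = 0.0622) did not pass either. The share was 12% beside 16.1%, and the median was -0.05. The count of 3 was 11 without siCtrl 2, 5 without siCtrl 1, 1 without siCtrl 3 and 2 without any 1 siNUDT5 library.

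**Figure D4:**
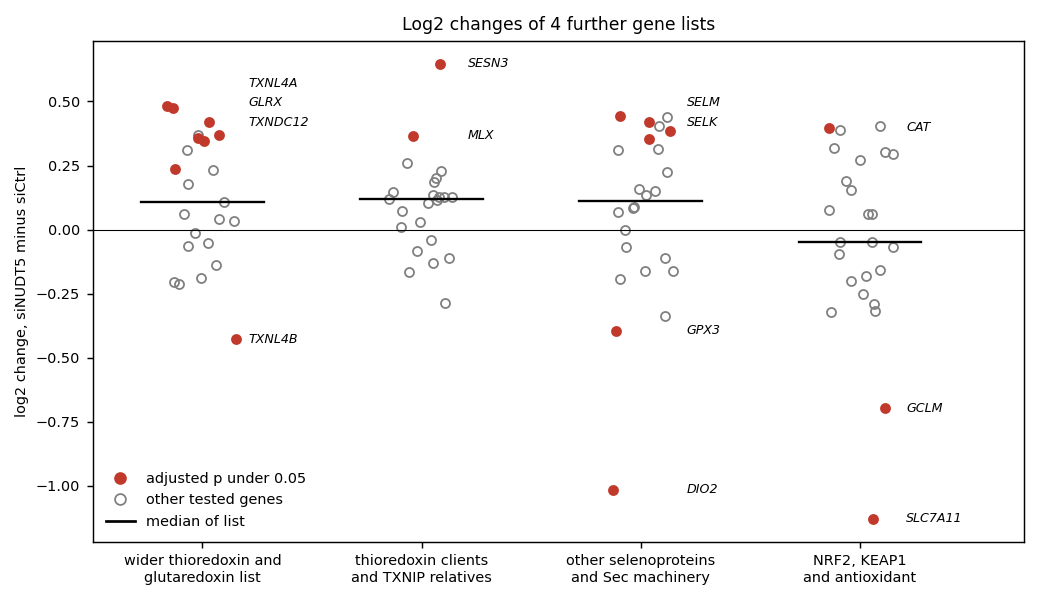
Log2 changes, siNUDT5 minus siCtrl, of the tested genes of 4 further lists. Filled points are past an adjusted p of 0.05, open points are not, bars are list medians, and up to 4 genes past the threshold are named per list. The medians lie between -0.05 and 0.12, and the largest change is that of SLC7A11 at -1.13.

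The genes whose profile over the 6 libraries lay nearest to that of TXNRD1 were CA2, MAPK6, C12orf39, C9orf84 and TAF11. Likeness was the root-mean-square difference of log2(TPM + 1) values centred on each gene's mean, and it was 0.118, 0.132, 0.156, 0.166 and 0.167 in this order, over 6 libraries. MAPK6, like TXNRD1, was highest in siCtrl 2. It had 37.0, 33.9 and 35.3 TPM in siNUDT5 libraries, against 105, 175 and 118 TPM in siCtrl libraries. CA2, a carbonic anhydrase, had 9.02, 8.16 and 9.23 TPM in siNUDT5 libraries, against 28.5, 30.2 and 29.4 TPM in siCtrl libraries.

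**Figure D5:**
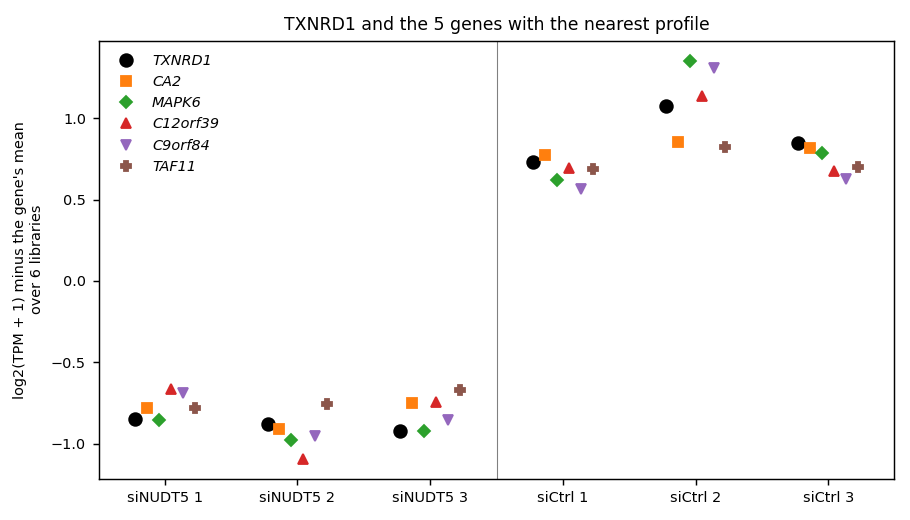
Log2(TPM + 1) of TXNRD1 and of the 5 nearest genes in each library, minus the gene's mean over the 6 libraries. All 6 genes lie below 0 in siNUDT5 libraries and above 0 in siCtrl libraries, and all 6 reach their highest value in siCtrl 2. The 5 genes were picked for this likeness over the same libraries, so their shared pattern is no separate result. Over all 12236 tested genes, siCtrl 2 was the highest siCtrl library in 6113.

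Genes that overlap or adjoin TXNRD1 and PRDX1 in RefSeq were looked up next. EID3, which overlaps TXNRD1, had 0, 0.188 and 0.527 TPM in siNUDT5 libraries, against 0.889, 0.347 and 1.79 TPM in siCtrl libraries, too low to be tested. NFYB, the protein-coding gene before TXNRD1 in RefSeq's order, had a log2 change of -0.25 and did not pass (adjusted p = 0.297). MMACHC, which overlaps PRDX1, had -0.13 and did not pass (adjusted p = 0.505). No source used here says whether reads were counted by strand, so reads from overlapping genes may be shared. RefSeq also names 7 pseudogenes after TXN, 4 each after PRDX2 and PRDX3 and 1 each after PRDX1, TXN2 and SRXN1, and none after TXNRD1, TXNRD2, TXNIP or PRDX6. The levels of genes with such copies are uncertain to that extent.

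The 7-base words AAGACTT or AGACTTA, and also GATTAAC, were searched in 3' UTRs because an earlier look at these libraries had picked them on these same log2 changes. In the longest GENCODE 29 3' UTR, TXNRD1 held none of the 3 words, nor did TXNIP. AAGACTT was found in PRDX1 and SRXN1, and the other 8 genes of the system held none of the 3 words. Of 11924 searched genes 17.0% held AAGACTT, 11.1% AGACTTA and 6.08% GATTAAC, so genes without a given word are the common case. The sites are shown with the word in capitals, at chr1:45511225-45511251 (PRDX1) and chr20:647494-647520 (SRXN1) of GRCh38, both on the minus strand.
PRDX1: agtaaaacacAAGACTTcagattcagc
SRXN1: tagaagctgaAAGACTTcttgagttct
A match is a description of letters, and no part of these words in the changes was tested.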

How the data were processed

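The authors deposited TPM per gene symbol for 6 libraries, each summing to 1000000. Per the submitters' processing notes STAR 2.7.3a, DESeq2 1.22.1 and hg19 were used, with no role stated. The method behind the TPM, and the handling of shared reads, were not given in the sources used here. Per the labels' protocols, strand-specific mRNA libraries were made from 200 ng of total RNA.

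The fit was limma 3.58.1 (R 4.3.3) with eBayes and a trend, two-sided, of siNUDT5 minus siCtrl in log2(TPM + 1). It took the 12236 genes averaging 1 TPM or more, with Benjamini-Hochberg adjustment and a threshold of 0.05. Such log2 changes understate changes of low genes. All 10 genes of the system passed the filter.

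The genes and the 4 lists were chosen with earlier results of these data known. The rule for named genes took NUDT5, the 10 genes, up to 4 genes per list past the threshold by size of change, the 5 nearest profiles to TXNRD1, and overlapping or neighbouring genes, a few of which are not reported here. Other genes of the lists, those that did not pass included, were named after their values were seen. Relative depth is the modal ratio of values under 0.3 TPM in siCtrl 1. Of 12236 genes 11924 (97.5%) had a 3' UTR of at least 50 bases, 480 through another symbol. Python 3.11.15, numpy 2.4.6, pandas 2.3.3, scipy 1.17.1 and matplotlib 3.10.9 were used. As alternatives, the pseudocount was 0.1 or 5, the filter was dropped or raised to 5 TPM, values were scaled by median ratios or quantile normalized, the replicate number entered as a block, and every library was left out once.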

Additional observations from a re-analysis of the deposited data

How the results depend on the processing

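TXNRD1 kept its direction under all 13 alternatives, with log2 changes from -1.85 to -1.67. Its difference from the median of the other 9 genes moved by less than the spread between libraries in each. With the filter at 5 TPM that median leaves out SRXN1, which the filter dropped. The count over all 12236 genes, 1970, was 739 with the replicate block and 764 to 3804 without any 1 library. With the replicate block 1 selenoprotein gene, 1 NRF2 gene, 0 genes of the wider thioredoxin list and 0 client genes passed (8 and 2 of the last 2 lists at an unadjusted limma p under 0.05), and with quantile normalization 5 NRF2 genes. Leaving out 1 library gave 0 to 13 genes of the wider thioredoxin list, 0 to 7 client genes, 1 to 10 selenoprotein genes and 1 to 11 NRF2 genes. The highest counts came without siCtrl 2, which was the highest or lowest siCtrl library in 89.8% of all tested genes. Fewer samples enter each of these fits. Over all genes the count was above 1970 without siCtrl 2 (3804) or siCtrl 1 (2075), and below it without any other library. The causes of these shifts were not tested. Whether the replicate numbers pair the libraries is not known. Deviations from the group means correlated at -0.43, -0.54 and -0.04 between libraries of the same number. Between libraries of different numbers they correlated at -0.27 to 0.49. With 3 libraries per group these values cannot settle the question. A call lost with the block is not read as a smaller effect. TPM hold no read counts, so counting error at low genes such as SRXN1 and TXNIP is unknown.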
